A study of Mus musculus with 15 samples.

Results

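The 10 arrays described here are the 5 with the highest and the 5 with the lowest signal of mitosis genes among 15 arrays of serum-starved mouse embryonic fibroblasts. The arrays were ranked by the mean log2 ratio of 14 probes for 8 genes, Ccnb1, Ccna2, Cdc20, Plk1, Birc5, Top2a, Aurkb and Kif11, in the authors' deposited value table, and that mean is called the index. The members were thus chosen by measured values of these 8 genes. A log2 ratio sets the RNA of a culture, labelled red, against RNA pooled from fibroblasts, labelled green, on the same array. The fibroblasts came from embryos at 13.5 days on a C57B6 background, were at passage 3, and were harvested at high confluence after 24 h without serum. The series has 4 wild type arrays, 4 of p27 knock-out, which lacks the cyclin-dependent kinase inhibitor made from Cdkn1b, 4 of stathmin knock-out, which lacks the microtubule-destabilising protein made from Stmn1, and 3 of the double knock-out of both genes. Replicates are named biological in the labels, which do not say whether embryos were pooled. The labels give no allele for either knock-out.

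Fibroblasts without serum leave the cell cycle for quiescence, a reversible arrest in which the genes of DNA replication and of mitosis are repressed. In quiescent cells E2F and pocket proteins, joined with the MuvB core in the DREAM complex, hold these genes down, and on re-entry the replication genes come on before the mitotic ones. Genes of the mitotic phase are known to carry CCAAT boxes, bound by NF-Y, and a cell cycle homology region (CHR), bound by MuvB, close to their start sites. A culture that still holds a few dividing cells has more mitotic RNA than one that has stopped. In bulk RNA, fewer dividing cells and less of this RNA per cell cannot be told apart.

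The letters of these elements were looked for in promoters, and stretches of 6 mitotic genes are shown as examples, since most of them hold both kinds. They are the 110 bases before the start site from RefSeq (GRCm38.p6), 5′ to 3′ on the strand of the gene. Capitals mark CCAAT and the CHR letters TTTGAA or TTCGAA on either strand, so that ATTGG and TTCAAA are the same elements read from the other strand. The first 4 genes are in the index. Cdk1, the mitotic kinase, and Ccnb2, one of its cyclins, are not.
Ccnb1, chr13:100786487-100786596, minus strand: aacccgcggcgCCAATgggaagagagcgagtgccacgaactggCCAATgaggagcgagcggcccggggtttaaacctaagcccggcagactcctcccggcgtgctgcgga
Cdc20, chr4:118437344-118437453, minus strand: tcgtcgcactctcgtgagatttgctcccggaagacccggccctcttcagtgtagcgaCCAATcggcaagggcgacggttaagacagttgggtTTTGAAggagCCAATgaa
Top2a, chr11:99024190-99024299, minus strand: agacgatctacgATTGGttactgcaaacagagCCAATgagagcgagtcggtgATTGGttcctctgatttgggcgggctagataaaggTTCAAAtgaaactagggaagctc
Kif11, chr19:37376272-37376381, plus strand: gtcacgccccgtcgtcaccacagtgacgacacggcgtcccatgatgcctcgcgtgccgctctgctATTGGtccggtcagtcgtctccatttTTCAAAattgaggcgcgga
Cdk1, chr10:69352913-69353022, minus strand: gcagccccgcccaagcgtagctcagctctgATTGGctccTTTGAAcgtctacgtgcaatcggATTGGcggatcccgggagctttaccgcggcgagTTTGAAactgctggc
Ccnb2, chr9:70421555-70421664, minus strand: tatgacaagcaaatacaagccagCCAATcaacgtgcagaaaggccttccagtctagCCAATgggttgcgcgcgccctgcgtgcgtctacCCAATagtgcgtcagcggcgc

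In Ccnb1 the CCAAT letters start 99 and 67 bases before the start site, and in Ccnb2 they start at -87, -54 and -21. The CHR letters start at -18 in Cdc20, at -19 in Kif11, at -23 in Top2a, and at -71 and -15 in Cdk1. The stretches of Ccnb1 and Ccnb2 hold no CHR letters; those of Ccnb2 start at -167 and 4, outside the stretch. Of the index genes not printed, Plk1 has CCAAT at -14 and CHR letters only after the start site, at 30, and Birc5 has neither. A match is a description of the letters and shows no binding.

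The ranking separated the cultures as follows. The top set held p27 knock-out 3 (index 0.60), wild type 1 (0.50), p27 knock-out 4 (0.39), double knock-out 3 (0.21) and double knock-out 1 (0.17). The bottom set held stathmin knock-out 3 (-0.07), p27 knock-out 1 (-0.19), stathmin knock-out 4 (-0.60), p27 knock-out 2 (-0.83) and, as the lowest array, stathmin knock-out 2 (-1.19). Between them lay wild type 2 (0.14), wild type 3 (0.07), stathmin knock-out 1 (0.05), wild type 4 (0.05) and double knock-out 2 (0.02). The borders were thin: the last array of the top set and the next array read 0.17 and 0.14, and the first array of the bottom set and its neighbour read -0.07 and 0.02. The spread was one-sided, since 3 arrays fell clearly below the rest and the other 12 lay within -0.19 to 0.60.

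**Figure D1:**
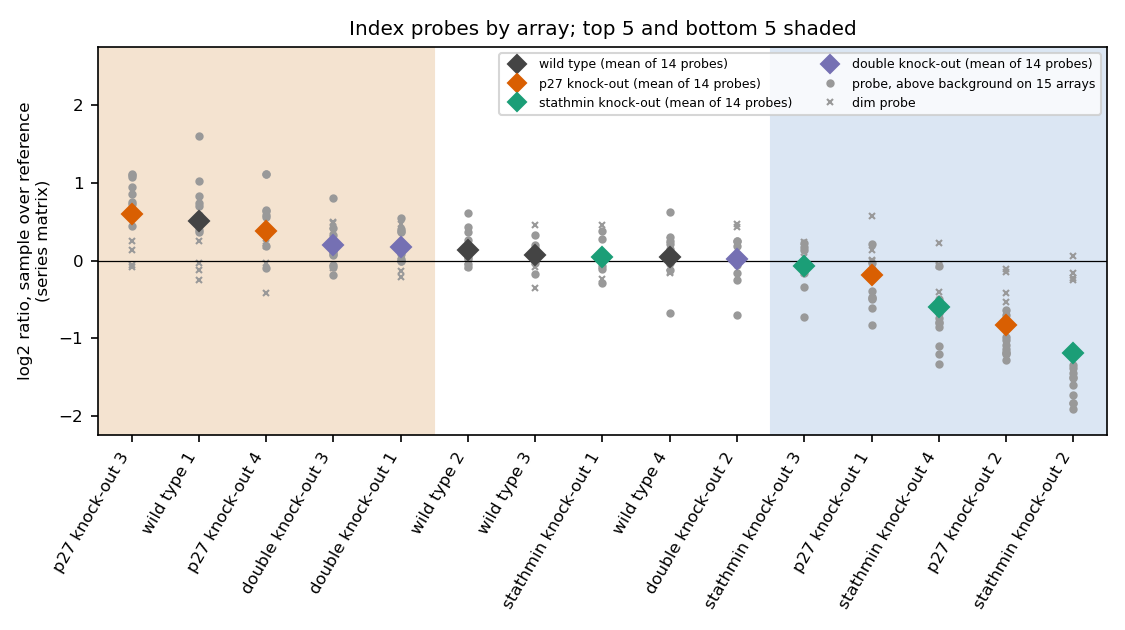
Log2 ratio (vertical axis, deposited value table) of the 14 index probes on each of the 15 arrays, ordered by the index from left to right. Diamonds are the index, coloured by genotype, grey dots are probes above background on all 15 arrays and crosses are the 4 dim probes. The top set spans 0.17 to 0.60 and the bottom set -1.19 to -0.07, and the crosses stay near 0 on both sides.

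By genotype, the top set had 2 p27 knock-out, 2 double knock-out, 1 wild type and 0 stathmin knock-out arrays. The bottom set had 3 stathmin knock-out arrays and 2 of p27 knock-out, and 0 of wild type or double knock-out. The p27 knock-out was thus the only genotype in both sets, and all 4 of its arrays were in one or the other. The index averaged 0.19 ± 0.21 (SD, n = 4) in wild type, 0.13 ± 0.10 (n = 3) in double knock-out, -0.01 ± 0.64 (n = 4) in p27 knock-out and -0.45 ± 0.57 (n = 4) in stathmin knock-out. The 4 genotypes did not differ beyond this spread (exact permutation test over 15765750 arrangements, two-sided, p = 0.254). Stathmin knock-out differed from wild type by -0.64, with 3 of 4 arrays below every wild type array (exact permutation p = 0.0571, adjusted p = 0.171 over 3 comparisons). P27 knock-out differed from wild type by -0.20 and double knock-out by -0.06, each with an adjusted p = 0.83 from the same exact permutation test. With 4 arrays against 4, and with 3 against 4, the smallest p that can be reached is 0.0286.

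The index was also set against the hybridisation. The 15 arrays lay on 4 slides, each with 1 array per genotype except that slide 2 had no double knock-out, and the index means of the slides were 0.13, -0.63, 0.16 and 0.01 in slide order (exact permutation p = 0.113). Slide 2 held 0 arrays of the top set and 2 of the bottom set, the second arrays of p27 and of stathmin knock-out, which were the lowest of all. With each of the 15 arrays left out in turn, the p by slide ranged from 0.0172 to 0.512 (exact permutation). The lowest was without wild type 2, the remaining array of slide 2. That choice leaves only the 2 lowest arrays on slide 2, so it draws no conclusion on the slides. Position on the slide followed the genotype, and these cannot be told apart. Differences within slides 1, 3 and 4, which held both sets, are therefore given beside the main results. Across the 15 arrays the index correlated at r = -0.40 (rho = -0.30) with the median sample signal (permutation p = 0.141 for r and 0.271 for rho), at r = 0.19 (rho = 0.06) with the median reference signal (permutation p = 0.495 and 0.823), and at r = -0.0046 (rho = -0.20) with the share of spots well above background (permutation p = 0.987 and 0.475). The adjusted p over these 3 relations was 0.423 to 0.987 for r and 0.712 to 0.823 for rho by permutation, and without the 2 arrays farthest from the median r was -0.28, 0.39 and -0.26.

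The arrays had a sample channel well above background on 59.3 to 78.9% of spots, and their number limits the precision. P27 knock-out 2 correlated below 0 with wild type 3 (r = -0.45 over all probes) and wild type 4 (r = -0.36), while the dyes stated in the labels set the direction. Wild type 3 and 4, both between the sets, correlated at r = 0.79. Xist, the RNA of the inactive X chromosome, was high on 2 arrays of the top set (0.20 on wild type 1 and 0.63 on double knock-out 1), on 2 of the bottom set (1.91 on p27 knock-out 2 and 1.98 on stathmin knock-out 2) and on stathmin knock-out 1 (1.01), and read -2.58 to -1.76 on the other 10. Cdkn1b did not separate the arrays by label: its tested probe averaged -0.20 in both sets, with p27 knock-out arrays at 0.05 and -1.10 in the top set and at -0.15 and -0.18 in the bottom set. Stmn1 averaged 0.26 ± 0.49 (SD, n = 5) in the top set and -0.54 ± 0.32 (n = 5) in the bottom set on its brighter probe, and the sets overlapped. A second Stmn1 probe, above background on 15 arrays, ranged from -2.82 to 1.49 in the top set, which holds 2 arrays lacking the gene, and from -2.98 to 0.69 in the bottom set, which holds 3. Where these probes lie relative to the knock-out alleles is not given in the labels.

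The index probes fell into 2 kinds. On 10 of the 14 the sample signal passed the background limit on all 15 arrays, and these differed between the sets by 0.99 to 1.62 in the deposited table. The other 4, 2 for Top2a and 2 for Kif11, were near background, with raw signals of 70.4 to 127.7, and differed by 0.09 to 0.18. The ranking therefore rested on the bright probes. Their difference lay in the sample channel, at 0.82 to 1.57 on the log2 scale, and not in the reference channel, at -0.09 to 0.10. These values chose the sets, so they describe them and nothing more. From the scanner files, Aurkb, the chromosomal passenger kinase, averaged 0.43 ± 0.72 (SD, n = 5) in the top set and -1.14 ± 0.46 (n = 5) in the bottom set. Birc5, its partner survivin, averaged 0.25 ± 0.42 and -1.05 ± 0.47. Plk1, the polo-like mitotic kinase, averaged 0.49 ± 0.32 and -0.80 ± 0.69. The mitotic cyclin Ccnb1 read 0.78, 0.64, 0.49, 0.03 and 0.30 on the top arrays in rank order and -0.14, -0.19, -0.81, -1.09 and -1.45 on the bottom arrays. The Ccnb1 probes are part of the index, so this fall along the rank order is partly built in. Ccna2, the S and G2 phase cyclin, differed by 1.12, Top2a, the decatenating topoisomerase, by 1.15, the spindle motor Kif11 by 1.06 and Cdc20, an activator of the anaphase-promoting complex, by 0.90, and in these 4 genes the sets overlapped.

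All other genes were compared between the sets without a test, because measured values chose the arrays. A gene was counted when all 5 arrays of one set lay above all 5 of the other, written as not overlapping. Of 18573 genes, 468 (2.52%) did so with the top set higher and 395 (2.13%) with the top set lower. With median centring of the arrays in place of loess the counts were 687 and 328. A mean difference above 0 was found for 47.3% of the genes, one above 1 on the log2 scale for 1.82% and one below -1 for 3.21%. These shares are the background for the counts of each gene group. A gene that was high in only one set could pass the filter on dim probes through that set alone. The counts can thus include genes that were near background in the other set. With only probes well above background on all 10 arrays, 409 of 15276 genes were higher and 330 lower without overlap. In either direction 4.65% of the 18573 genes did not overlap. For such a gene the sign of a difference within a slide is fixed by the way it was counted, so only the size of that difference is informative. Of these 863 genes, 14 (1.62%) had the larger difference in the reference channel.

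Mitosis genes outside the index were higher in the top set almost without exception. Of 89 measured genes, 87 had a difference above 0 and 54 a difference above 1, against 47.3% and 1.82% of all genes. In 42 the sets did not overlap, all with the top set higher, against 2.52% of all genes. The median difference was 1.09, against -0.02 over all genes. They were measured in the same RNA as the index genes, so the count is no independent support for the ranking. Kif20b, a kinesin of cytokinesis, averaged 0.76 ± 0.27 (SD, n = 5) in the top set and -0.83 ± 0.77 (n = 5) in the bottom set. Other, dimmer probes of Kif20b differed by 0.94 and 0.77, and their sets overlapped. Cenpa, the centromeric histone, averaged 0.39 ± 0.73 and -1.19 ± 0.31. Ect2, which activates RhoA at the cleavage furrow, differed by 1.51, and so did Bub1, a kinase of the spindle checkpoint. Cdk1 differed by 0.65 and Ccnb2 by 0.91, and neither overlapped. The exceptions were Cdca2, a phosphatase-targeting protein, at -0.37 and Pttg1, the securin, at -0.09.

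Cenpa was read at 0.59, 1.53, -0.21, -0.26 and 0.28 on the top arrays in rank order and at -1.04, -0.74, -1.52, -1.27 and -1.39 on the bottom arrays. Its highest value was on wild type 1, and every bottom array was below every top array by at least 0.48. The mean over the 89 mitosis genes was 0.71, 0.58, 0.47, 0.20 and 0.17 on the top arrays and 0.01, -0.41, -0.52, -0.78 and -1.32 on the bottom arrays. Stathmin knock-out 3, at 0.01, read like the middle arrays, which spanned -0.03 to 0.13. Within slides the median mitosis difference was 0.73 on slide 1, where wild type 1 and double knock-out 1 were set against p27 knock-out 1. It was 0.72 on slide 3 (p27 knock-out 3 against stathmin knock-out 3) and 0.91 on slide 4 (p27 knock-out 4 and double knock-out 3 against stathmin knock-out 4). Among the p27 knock-out arrays alone, 3 and 4 against 1 and 2, it was 1.21, with 86 of 89 genes above 0, against 46.9% of all genes.

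The CHR letters stood in the promoter window, from 250 bases before to 50 after a start site, of 73.0% of the 74 mitosis genes that the promoter table holds, against 21.7% of all 27025 genes in it. CCAAT stood in 67.6% against 41.1%, and both together in 54.1% against 8.6%. The 36 mitosis genes that did not overlap and the 38 that did were alike in this: 72.2% and 73.7% held the CHR letters, and 55.6% and 52.6% held both. An E2F motif (GCGGGAA or GCGCGAA, both strands) stood in 56.5% of 46 DNA replication genes, against 6.86% of all genes in the table and 12.2% of the mitosis genes. Of the 18573 measured genes the table held 12018, under 80%, so shares over them describe only the genes held. Of these, 17.3% held the CHR letters, 42.4% CCAAT, 7.01% both and 11.5% the E2F motif. Matches of the motifs were not required to be apart. For the 468 genes that did not overlap and were higher the table held 302, also under 80%, and the motif count over them is not given.

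DNA replication genes were higher in the top set as well, with smaller differences. All 56 measured genes had a difference above 0, with a median of 0.74, and 10 did not overlap (background 2.52%). Cdca7, a chromatin remodelling cofactor, averaged 0.36 ± 0.29 (SD, n = 5) in the top set and -0.89 ± 0.60 (n = 5) in the bottom set. Cdc45, of the replicative helicase, differed by 1.20 and Mcm2, a subunit of its ring, by 0.98. The list mean of the arrays overlapped between the sets, because double knock-out 1 read -0.09 and stathmin knock-out 3 read 0.06. Within slides 1, 3 and 4 the median was 0.43, 0.29 and 0.79. Of the genes not overlapping whose promoters were read, Cdca7 and Gins3 held an E2F motif in the 110 bases before the start. Cdc6 held it at -138 and Cdt1 at 18, while Mcm2, Cdc45, Pola2 and Pole2 held none in the window. The stretch of Cdca7 is shown as an example, with the motif in capitals.
Cdca7, chr2:72476109-72476218, plus strand: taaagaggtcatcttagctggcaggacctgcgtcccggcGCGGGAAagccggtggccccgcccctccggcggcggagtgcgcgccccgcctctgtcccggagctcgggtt

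Repair and checkpoint genes of replicating DNA were above 0 for 23 of 24 members, the median was 0.72, and 2 did not overlap (background 2.52%). These were Bard1, the partner of BRCA1, at 0.87 and the recombination gene Xrcc3 at 0.42. Among G1 cyclins and kinases 11 of 13 were above 0, and 3 did not overlap, against 2.52% of all genes. Cdk2, the kinase of S phase entry, differed by 1.12, Skp2, the ubiquitin ligase subunit that marks p27 for destruction, by 0.87 and its cofactor Cks1b by 0.84. The Cdk2 probe read 1.84 on wild type 1, far above the other top arrays at -0.12 to 0.36. Its reference channel differed by 0.31 in the same direction as its sample channel (1.42), which made the difference smaller. A second Cdk2 probe, above background on 14 arrays, differed by 0.21, and its sets overlapped. The sets of a second Skp2 probe, which differed by 0.65, overlapped as well. In Cks1b the reference channel differed by -0.28.

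Transcription factors of the E2F family, the pocket proteins, the MuvB subunits, Mybl2 and Foxm1 were above 0 for 16 of 20 members (median 0.31). Only Tfdp2, an E2F dimerisation partner, did not overlap, at 0.48; it was named after its value was seen. E2f4 differed by 0.80 and E2f2, an activator E2F, by 0.77, and both overlapped. The mean over this list was 0.01 to 0.35 in the top set and -0.38 to -0.01 in the bottom set, so that the list means did not overlap. Of the list means examined, this held in addition only for the index genes and the mitosis genes.

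**Figure D2:**
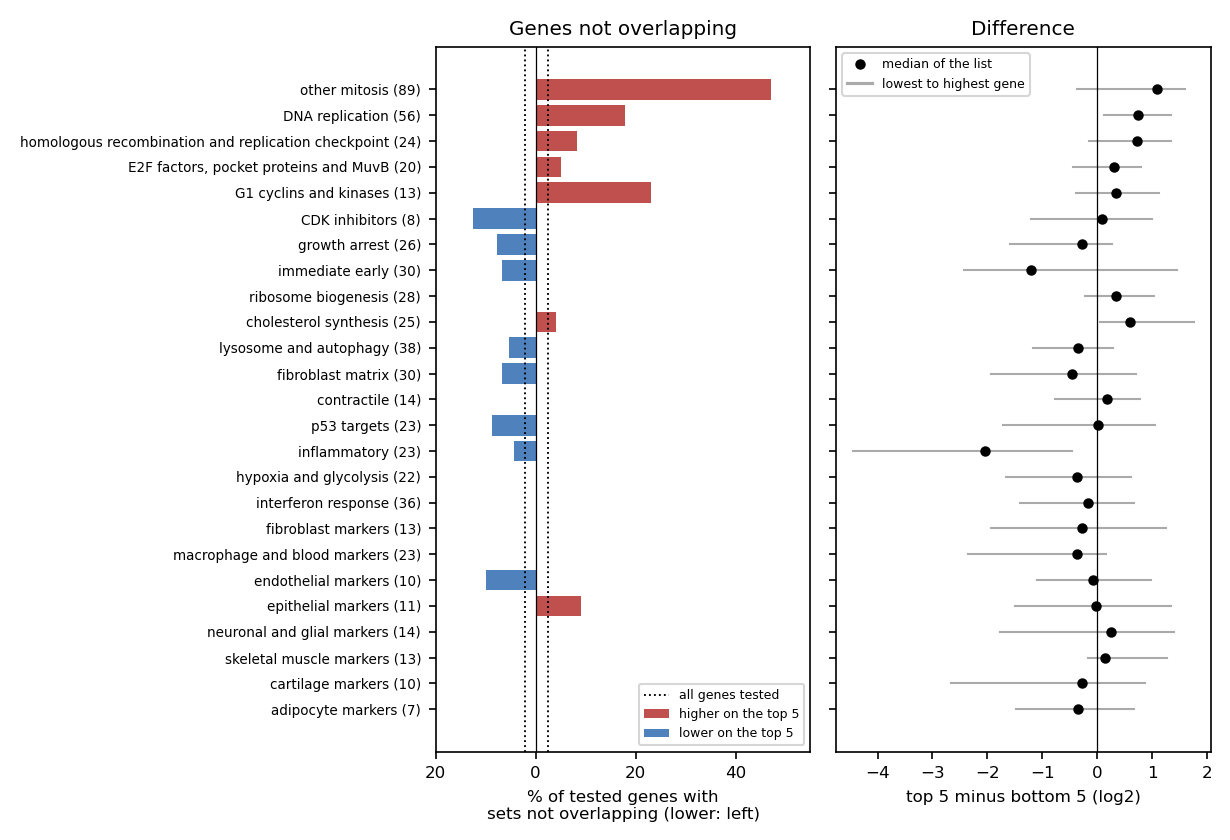
Left, the share of each list's measured genes (number in brackets) whose top and bottom sets did not overlap, higher to the right and lower to the left of 0, with dotted lines at the 2.52% and 2.13% of all genes tested. Right, the median difference of each list (dot, log2) and the lowest to highest gene (line). Mitosis genes reach 47.2% on the left, and the immediate early and inflammatory lists have the lowest medians.

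The inhibitors of cyclin-dependent kinases did not go one way: 4 of 8 were above 0. Cdkn2a, which encodes p16Ink4a and p19Arf and is known to accumulate as fibroblasts are passaged, was the only one that did not overlap. It read -0.95, -0.22, -0.78, -0.34 and -0.09 on the top arrays and 0.95, 0.55, 0.87, 0.59 and 0.70 on the bottom arrays in rank order. All bottom arrays were above all top arrays by at least 0.64, and the difference was -1.21. Within slides it was -0.70, -1.90 and -1.43, and within the p27 knock-out arrays -1.44. The middle arrays had a median of 0.09. Cdkn3, a phosphatase of these kinases, differed by 1.00, and Cdkn1b, the p27 gene, by -0.0048, and in both the sets overlapped.

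Genes of growth arrest were lower in the top set for 20 of 26 members, with a median of -0.28, and 2 did not overlap (background 2.13%). Within slides 1, 3 and 4 this median was 0.02, -0.09 and -0.44, so that it was below 0 on slides 3 and 4 alone. Pdk4, a pyruvate dehydrogenase kinase induced on fasting, averaged -0.89 ± 0.69 (SD, n = 5) in the top set and 0.69 ± 0.32 (n = 5) in the bottom set. Mxd4, a MYC antagonist, averaged -0.27 ± 0.23 and 0.33 ± 0.10. Of the other Mxd4 probes, that with a difference of -0.29 overlapped and that with -1.07 did not. Lysosome and autophagy genes were lower for 33 of 38 members, with a median of -0.35, and -0.42, -0.21 and -0.17 within slides. The cathepsins Ctsf (-1.12) and Ctsd (-0.91) were the 2 of them that did not overlap (background 2.13%). Ctsd read -0.89, -1.18, -0.41, -0.48 and -0.70 on the top arrays and -0.21, 0.37, -0.03, 0.41 and 0.34 on the bottom arrays. On a second Ctsd probe the difference was -0.57, and the sets overlapped. Among matrix genes 25 of 30 were lower, with a median of -0.46, and -0.84, -0.48 and -0.22 within slides. The metalloproteinase inhibitors Timp1 (-1.53) and Timp2 (-1.16) did not overlap (background 2.13%), and the reference channel gave 0.42 and 0.43 of their differences. Of the p53 targets 12 of 23 were above 0, with a median of 0.00. Btg2, an antiproliferative gene, at -1.31 and Ephx1, an epoxide hydrolase, at -0.83 did not overlap (background 2.13%). Second tested probes of Btg2 and Ephx1 differed by -1.38 and -0.63, and the sets of both overlapped. Within slides the p53 median was -0.04, -0.14 and -0.37.

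Immediate early genes, which growth factors and stress switch on within minutes, were lower in the top set for 29 of 30 members. Their median was -1.21, and 16 were below -1, against 3.21% of all genes. Only Egr2 (-2.23), a zinc finger transcription factor, and Btg2 did not overlap, which is 6.67% against 2.13% of all genes. Egr2 read -1.63, -2.40, -1.79, -1.06 and -3.11 on the top arrays and 0.39, 0.71, -0.99, -0.995 and 2.04 on the bottom arrays, with a gap of 0.06 between the sets. On the middle arrays wild type 3 and 4 it read 1.66 and 1.79, and on stathmin knock-out 1, also in the middle, -2.76. This gene therefore did not follow the index across the middle. Within slides the median of the list was -1.43 on slide 1, 0.03 on slide 3 and -0.51 on slide 4. Spry4, an inhibitor of growth factor signalling, was the exception above 0, at 1.45. The list means spanned -1.39 to -0.46 in the top set and -0.47 to 1.15 in the bottom set.

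Inflammatory genes had the lowest median of the lists, at -2.05, and 23 of 23 were below 0, 19 of them below -1 (background 3.21%). Only Tnfaip3, the ubiquitin-editing inhibitor of NF-kB signalling, did not overlap (4.35% against 2.13%). The list mean was -0.10, -1.94, -2.91, -1.74 and 0.02 on the top arrays and 0.23, -1.02, 0.92, 2.30 and 0.79 on the bottom arrays. Thus 2 top arrays were near the bottom ones, and p27 knock-out 1 in the bottom set read like the top ones. Within slides the median was 0.26 on slide 1, -0.38 on slide 3 and -3.57 on slide 4, so the direction was not the same on all slides. In the sample channel the median was -1.34, and in the reference channel it was 0.23. The stromelysin Mmp3 (-4.45) and the neutrophil chemokine Cxcl5 (-3.31) differed most. The reference channel of these 2 probes differed by 2.26 and 2.00, and in both genes the sets overlapped.

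**Figure D3:**
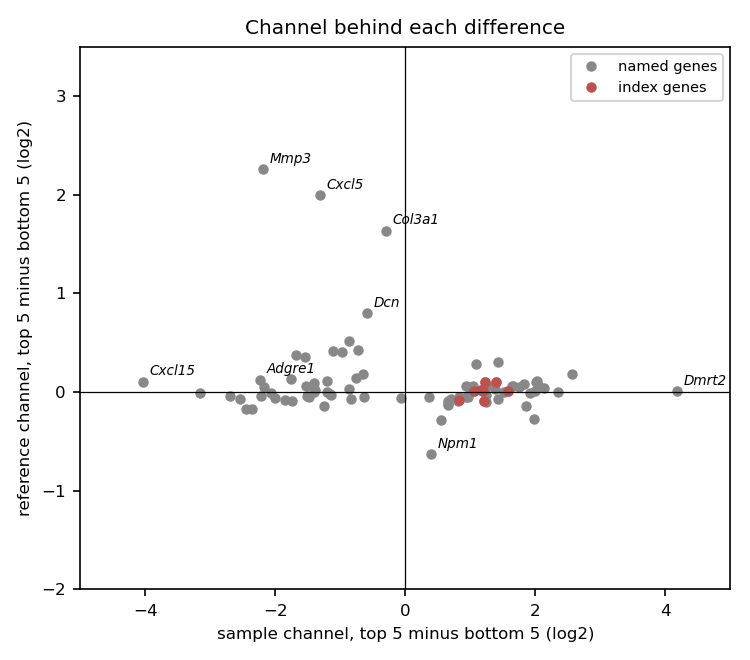
Difference between the top and bottom sets in the reference channel (vertical axis, log2) against that in the sample channel (horizontal axis, log2) for each named gene, index genes in red. Most genes lie near 0 on the vertical axis, while Mmp3, Cxcl5 and Col3a1 differ there by 2.26, 2.00 and 1.64.

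Cholesterol synthesis genes were higher in the top set for 25 of 25 members, with a median of 0.59. Only Dhcr7, the last enzyme of the pathway, did not overlap, at 0.81; it was named after its value was seen. The prenyl synthase gene Fdps differed by 1.02, and its sets overlapped. Within slides the median was 0.35, -0.03 and 1.49. Of the 28 ribosome biogenesis genes, 26 were above 0, with a median of 0.34, and 0 did not overlap in either direction. Nucleophosmin, from Npm1, differed by 1.02, of which 0.63 was in the reference channel (-0.63), and the nucleolar protein gene Nop56 by 0.75. Within slides this median was 0.00, -0.25 and 0.68.

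Of 22 hypoxia and glycolysis genes, 17 were below 0. The median was -0.37, but 0.52, 0.80 and -1.18 within slides 1, 3 and 4. The carbonic anhydrase Car9 differed by -1.65 and the peptide hormone gene Adm by -1.38, both overlapping. Interferon response genes had a median of -0.17, with 1.10, 1.68 and -2.72 within slides. Their mean was high on p27 knock-out 3 (1.66) in the top set and on stathmin knock-out 4 (1.40) and p27 knock-out 2 (1.02) in the bottom set. The interferon-induced GTPase genes Gbp2 and Gbp3 differed by -1.41 and -0.90. In contractile genes 10 of 14 were above 0, with a median of 0.17, but -0.83, 0.04 and 0.58 within slides. The actin-binding caldesmon, Cald1, differed by 0.78 and the fibronectin receptor subunit Itga5 by -0.78. None of the genes of these 3 lists had sets that did not overlap.

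**Figure D4:**
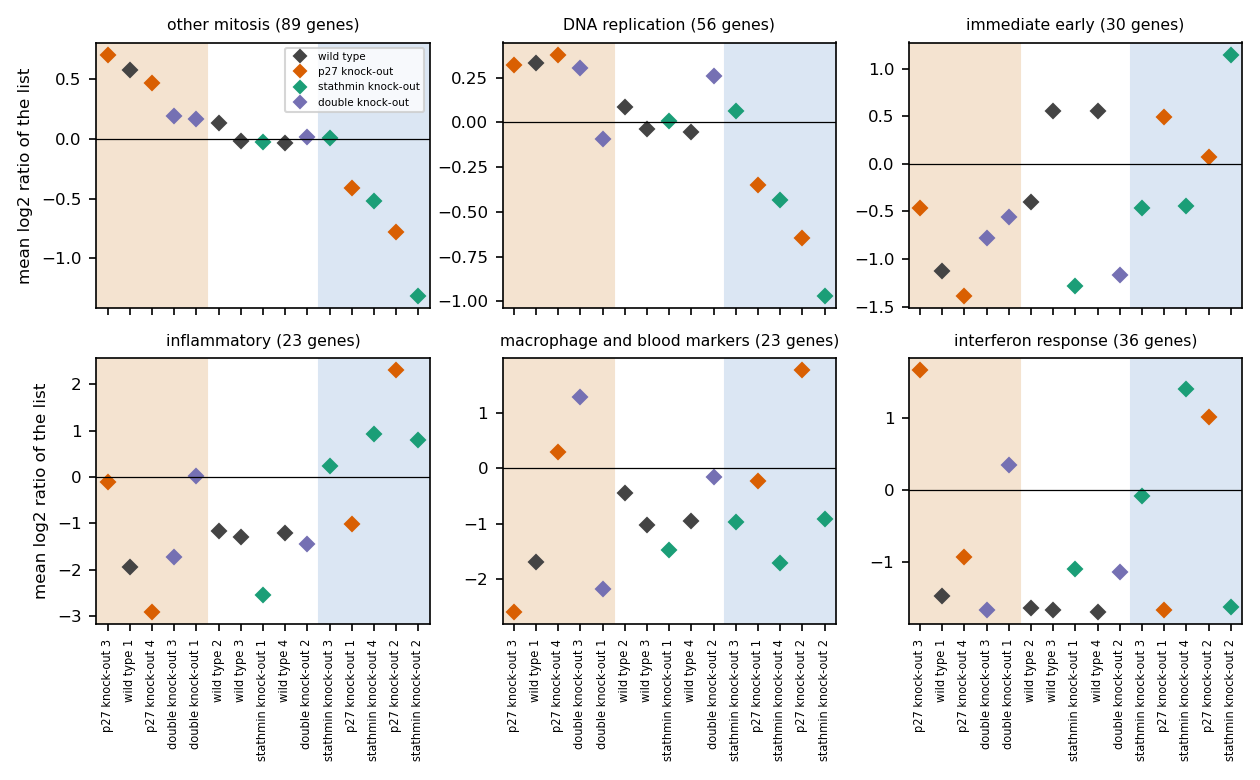
Mean log2 ratio of 6 lists on each of the 15 arrays, ordered by the index from left to right, with the top set shaded left and the bottom set shaded right and diamonds coloured by genotype. Mitosis genes fall from 0.71 to -1.32 along the order, while the macrophage and interferon means are high and low on both sides.

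Markers of other cell types were examined because cultures of embryo fibroblasts can hold them. Fibroblast markers themselves were measured for 13 of 14 genes, 10 of them lower in the top set, with a median of -0.27. This median became 0.00355 with the sample channel alone quantile-normalised. It was -0.04 in the sample channel as computed for the channel differences given elsewhere. The collagen gene Col3a1 differed by -1.93, of which 1.64 lay in the reference channel, and Dcn, the proteoglycan decorin, by -1.38. Within slides the fibroblast median was 0.08, -0.12 and -0.32. Of 23 macrophage and blood markers 20 were below 0 (median -0.38). Within slides 1, 3 and 4 that median was -1.84, -1.67 and 2.70, so slide 4 went the other way. Their mean ranged from -2.60 to 1.28 in the top set and from -1.71 to 1.76 in the bottom set. Adgre1, which encodes the macrophage surface protein F4/80, read -5.44, -3.73, -0.52, 0.99 and -5.09 on the top arrays and -1.23, -1.47, -1.97, 4.06 and -1.40 on the bottom arrays. The high reading was on p27 knock-out 2, where Cybb, a phagocyte oxidase subunit, also read 3.42 against -1.14 to -0.80 on the other bottom arrays. Without p27 knock-out 2 the median of the list was 0.023. The part of these cells in the inflammatory and other differences was not tested.

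Of 10 cartilage markers 8 were below 0 (median -0.27). Comp, a cartilage matrix protein, differed by -2.66 and Col2a1, the main cartilage collagen, by -1.39. Of 7 adipocyte markers 6 were below 0 (median -0.35, but 0.036 without both slide 2 arrays), with -0.07, 0.53 and 0.13 within slides. They included the lipid droplet gene Plin4 at -1.47 and the adipogenic regulator Pparg at -1.14. Endothelial markers had a median of -0.08 over 10 genes, with the angiopoietin receptor gene Tek at -1.10 and Flt1, a VEGF receptor gene, at 0.98. Epithelial markers had a median of -0.02 over 11 genes, with Perp, a desmosomal protein, at -1.49 and the keratin Krt18 at 1.34. Neuronal and glial markers had a median of 0.25 over 14 genes, 9 of them above 0, with differences from -1.77 to 1.40. The 2 largest in size went against that median, the microtubule regulators Stmn2 at -1.77 and Map2 at -1.43. Skeletal muscle markers had a median of 0.14 over 13 genes, with Des, desmin, at 1.27 and the actin Acta1 at 0.91. In these 6 lists, Krt8 (0.95) and Sox17 (-0.21), an endothelial transcription factor, were the genes whose sets did not overlap, named after their values were seen. Over all genes 4.65% did not overlap in either direction. Krt8 was well above background on 1 bottom array and Sox17 on 1 top array, so each passed the filter through one set. Their part in the differences between the sets was not tested.

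Among all genes with a symbol, clone names left out, whose sets did not overlap, the 12 with the largest differences with the top set higher belonged to no cell cycle list. Dmrt2, a transcription factor of the developing somites, read 0.38, 0.44, 0.90, 0.21 and 1.61 on the top arrays and -2.42, -3.99, -2.49, -4.37 and -4.05 on the bottom arrays in rank order. The difference was 4.17, with a gap of 2.63 between the sets, and 5.01, 2.79 and 3.04 within slides. Its level did not follow the index in between, since stathmin knock-out 1 read 0.98 and wild type 4 read -2.85. Fgf21, a fasting-induced hormone, averaged 0.54 ± 0.65 (SD, n = 5) and -1.84 ± 0.32 (n = 5), a difference of 2.38. The cytosolic retinoic acid binding protein Crabp1 averaged 0.11 ± 0.77 and -2.15 ± 0.62. Transcription factors of body patterning followed, with Zic1 at 1.97, Hoxc9 at 1.93 and Hoxc10 at 1.92. Hoxd1 ranked among the 12 as well, but its signal was well above background on 5 top arrays and 0 bottom arrays, so it passed the filter only through the top set, its level in the bottom set is only a bound, and no difference is given for it.

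The other genes of the 12 were Dcaf12l1, a WD-repeat gene, at 2.35, Lrrc15, a leucine-rich membrane protein of mesenchymal cells, at 2.00 and Prr9, which encodes a proline-rich protein, at 1.99. On a second, dimmer Lrrc15 probe the difference was 1.44, and the sets overlapped. Gap43, a growth cone protein, differed by 1.91 and Chn2, a Rac-inactivating protein, by 1.70. The gap between the sets was 0.03 in Prr9 and in Zic1.

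Among such genes, the largest difference in the other direction was that of Cxcl15, a chemokine gene known from lung epithelium. It read -4.75, -1.53, -2.70, -3.68 and -3.45 on the top arrays and 0.05, 0.42, 0.13, 0.89 and 3.08 on the bottom arrays, and the middle arrays had a median of -1.23. The difference was -4.14, with a gap of 1.58, and -2.91, -4.80 and -3.32 within slides. Ereg, a ligand of the EGF receptor, differed by -3.16 and Galnt13, which starts O-linked glycans, by -2.46. A second, dimmer Ereg probe, above background on all 15 arrays, differed by 0.06, and its sets overlapped. Col10a1, the collagen of hypertrophic cartilage, averaged -1.44 ± 0.36 (SD, n = 5) in the top set and 0.84 ± 0.34 (n = 5) in the bottom set, and had the widest gap of the 12 genes, at 1.59. Its slides gave -2.31, -1.95 and -2.37.

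Egr2 (-2.23), Arc (-2.19), a neuronal immediate early gene that is outside the list used here, and Tnfaip3 (-2.18) came next. Tnfaip3 read -0.14, -2.10, -2.38, -0.74 and -0.37 on the top arrays and 2.08, 0.19, 0.48, 1.32 and 1.09 on the bottom arrays. Errfi1, a feedback inhibitor of the EGF receptor, differed by -2.06, and 0.37 of this lay in the reference channel. The last 4 were Rarres1, a retinoic acid response gene, at -2.05, Sult1a1, a phenol sulfotransferase gene, at -1.95, Svep1, a matrix adhesion protein, at -1.90 and Rcan2, a regulator of calcineurin, at -1.89. On a second, dimmer Rcan2 probe the difference was -1.08, and the sets overlapped. The reference channel gave 0.36 of the Svep1 difference.

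**Figure D5:**
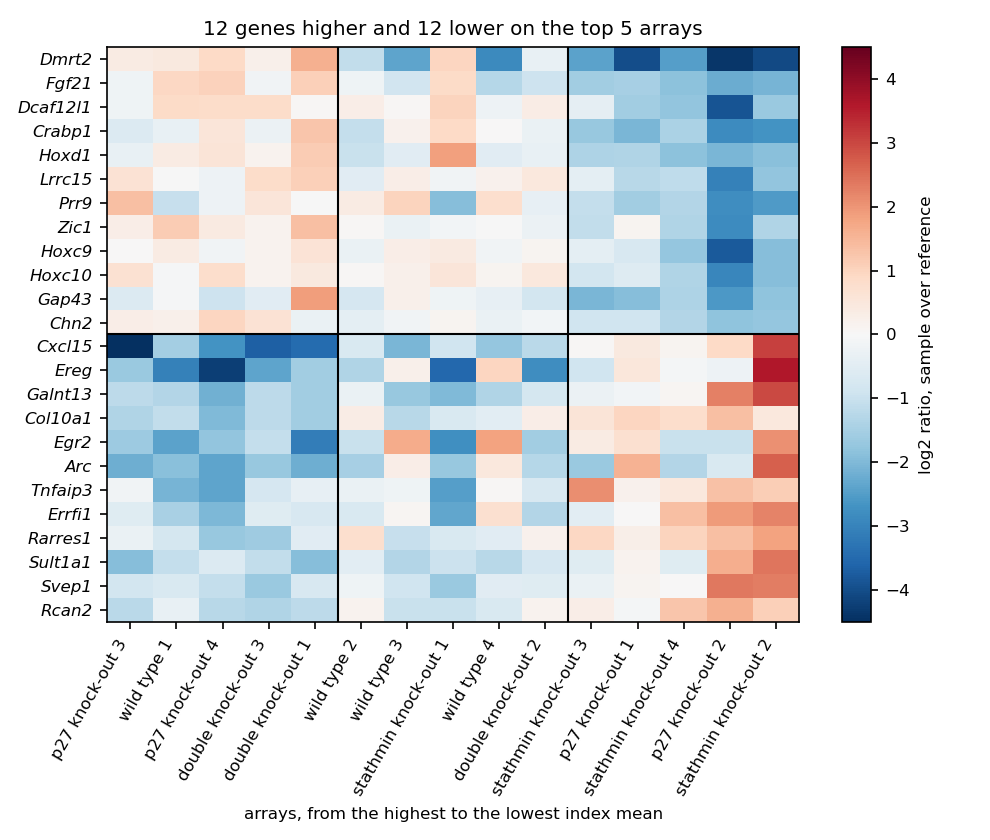
Log2 ratio (colour) of the 12 genes with the largest difference in each direction among those whose sets did not overlap, on the 15 arrays in the order of the index. Vertical lines bound the top 5 and bottom 5 arrays. Stathmin knock-out 1, in the middle, reads 0.98 for Dmrt2 and -3.53 for Ereg, close to the top set, and p27 knock-out 2 and stathmin knock-out 2 have many of the extreme values on the right.

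These 24 genes depended on where the line between the sets was drawn. When the arrays were ranked by the 89 other mitosis genes, 1 array changed, with stathmin knock-out 1 in the bottom set in place of stathmin knock-out 3. Only 4 of the 24 (Prr9, Zic1, Cxcl15 and Col10a1) still did not overlap. With 6 arrays per set, only Fgf21 did not overlap. With genotype means subtracted, Dmrt2, Fgf21, Col10a1 and Rarres1 did not overlap. Hoxd1 did not either, but it had passed the filter only through the top set.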

How the data were processed

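RNA of 15 fibroblast cultures was measured on 2-colour Agilent arrays with a pooled reference. Spot signals and local backgrounds are intensity values of the deposited scanner output (Feature Extraction 9.1.3.1, with no background subtracted, per the file headers). Their log10 ratio of red over green, also deposited, was not used for the results. The authors also deposited a table of log2 ratios, whose normalization and centring are not given in the sources used here; array medians were 0.00 to 0.05 and it correlated at 0.932 to 0.987 with the ratios computed here.

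Ratios were computed in limma 3.58.1 under R 4.3.3 by normexp with an offset of 50 and loess; outlier spots were left out and replicate spots averaged. A probe was used if its sample signal passed the background limit on 3 or more arrays of a set and measured on all 10 arrays, and the brightest stood for its gene. Probe names came from RefSeq through accession for 17793 probes, current symbol for 4024 and older symbol for 1898; 3589 kept the file's name. Channel differences came from the loess ratios with average intensities quantile-normalised between arrays. As a separate alternative, the sample channel alone was quantile-normalised. Python 3.11.15 with scipy 1.17.1 ran the permutation tests, two-sided, with 100000 resamples for correlations.

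The sets were chosen by measured values, so their difference has no p-value. P-values elsewhere measure only the spread between the arrays. Members and lists were chosen with earlier results of these data known. Named genes were the index genes, Cdkn1b, Stmn1, the 12 with the largest difference each way among those not overlapping (clone names left out), and per list up to 4 members not overlapping (or, with fewer than 2, the 2 with the largest difference); some named by this rule are not reported here. On simulated data the count found 100% of 100 probes moved by 1 and of 100 moved by 2 on the log2 scale. It also counted 0.76% of the unchanged probes. The noise of each simulated probe was held at or below the median SD of all probes. The result therefore does not cover noisier probes. Replicate numbers were not used to pair arrays: the 21 same-number pairs had residual correlations of -0.32 to 0.42, with 12 over 0.1, and 5 of 15 arrays were closest to their own number.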

Additional observations from a re-analysis of the deposited data

Results flagged for a closer look

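In 9 of 225 groups of arrays examined (4%) a single array stood far from the others of its set, where chance gives about 1 in 20. The groups were the index by genotype and, in each set, the list means and the named genes. On wild type 1, in the top set, Cdk2 read 1.84 against -0.12 to 0.36 on the other 4 arrays, and Rcan2 read -0.34 against -1.35 to -1.18. On double knock-out 1 the mean of the DNA replication genes was -0.090 against 0.30 to 0.38 on the other top arrays. On p27 knock-out 3 the keratin Krt18 read -2.21 against -0.10 to 0.54.

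In the bottom set, p27 knock-out 2 stood apart for both macrophage genes named, Adgre1 (4.06 against -1.97 to -1.23) and Cybb (3.42 against -1.14 to -0.80), and for caldesmon, Cald1 (-1.78 against -0.55 to -0.30). Stathmin knock-out 2 read 3.08 for Cxcl15 against 0.05 to 0.89. Stathmin knock-out 3 read -2.48 for Comp against 0.68 to 1.71.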

How the results depend on the processing

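The main counts, 468 genes higher and 395 lower, became 1053 and 947 with 4 arrays per set, 145 and 68 with 6, 83 and 80 with genotype means subtracted, and 369 and 228 with slide means subtracted; fewer arrays make non-overlap easier by construction, and the cause of the other changes was not tested. Without both slide 2 arrays, an alternative chosen after seeing the data, they were 700 and 640. Leaving out 1 array gave 523 to 855 higher and 442 to 750 lower, with changes over 1.5 times without stathmin knock-out 3 (855 and 750), p27 knock-out 1 (704 and 673) or p27 knock-out 3 (665 lower). The median of the other mitosis genes stayed above 0, from 0.67 with genotype means subtracted to 1.30. Medians turned above 0 for fibroblast markers with the sample channel alone (0.00355), for macrophage markers without p27 knock-out 2 (0.023, in a range from -0.90 over single arrays left out) or both slide 2 arrays (0.0066), and for adipocyte markers without the latter (0.036). A turn was counted only for lists whose members mostly lay on the same side of 0. Of 728 list medians under alternatives, these 4 turned by that rule, 3 moved by more than the spread between arrays and 721 by less. Medians of mixed lists could change sign without being counted as turned. The replicate numbers were used as a replicate block in an alternative: p = 0.168 for the index by genotype (exact block permutation), 436 genes higher and 365 lower. With the slide block that p was 0.178. Leaving out 1 array gave 0.0778 to 0.627 by genotype and 0.0172 to 0.512 by slide, the lowest without wild type 2 (exact permutation). No other alternative moved these p-values across 0.05. The 15 arrays limit what can be told apart.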

Other observations

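Because 3 Hox genes stood among the 12 leading genes, all 35 measured Hox genes were looked at after those values were seen, with no test. These homeobox factors mark the position of a cell along the body and limb axes. Hoxd1, well above background on 0 bottom arrays, and Hoxb13, on 2, passed the filter on dim probes only through the top set, so no count of genes whose sets did not overlap is given. Over all slides, 9 of 9 Hoxb genes and 6 of 7 Hoxc genes had a difference above 0, with medians of 0.54 and 1.06, while Hoxa (6 of 11, median 0.08) and Hoxd (3 of 8, median -0.15) were mixed. The Hoxb and Hoxd counts still include Hoxb13 and Hoxd1. Within slides 1, 3 and 4, however, 2, 3 and 9 of the 9 Hoxb genes were above 0, so the direction of this cluster changed with the slide. Of the 7 Hoxc genes 6, 6 and 6 were above 0 within these slides. The sets of Hoxc9, Hoxc10 and Hoxb13 did not overlap, so the sign of these genes within a slide was fixed. Hoxc9 and Hoxc10 were also among the genes that prompted this look. In the Hoxd cluster, Hoxd3 differed by 1.05 and Hoxd10 by -1.06. Hoxd13 differed by -1.37, but by 0.10 on slide 1. Whether embryos or dissections differed between the cultures is not given in the labels.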
